A study of Mus musculus with 10 samples.

Results

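Respiratory complex I was measured here through its nuclear genes in mouse gastrocnemius, a large calf muscle. The members are all genes of the deposited table whose symbol starts with Nduf, without pseudogenes, and with a summed estimated count of at least 50 over the 10 samples. Of 48 such symbols 47 met the rule, out of 21956 genes in the table, and they divide into 39 subunit genes and 8 Ndufaf genes for assembly factors. The member with the fewest reads was Ndufaf2, with 845 counts over all samples, and the 1 symbol left out, Ndufb11b, had 0. All 47 passed the filter on low counts. Poly(A) RNA was sequenced in 5 HLI samples and 5 Sham samples, each from gastrocnemius of WT mice. The labels abbreviate the treatment as HLI, read here as hindlimb ischaemia, and give no time after surgery, strain, sex or age. The series title concerns endothelial FGF13 and the degradation of HIF-1α, and HLI against Sham is the only comparison the labels allow. Whether each sample is a different animal is not stated, so the error given with each value is that between samples and may be technical.

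Complex I is the entry point of the mitochondrial respiratory chain. It takes electrons from NADH in its matrix arm, passes them along iron-sulfur clusters to ubiquinone, and pumps protons through its membrane arm. The matrix arm holds the NADH-oxidising N module and the ubiquinone-binding Q module, and the membrane arm has a proximal and a distal part. Its central subunits are divided between the nuclear and the mitochondrial genome, and many accessory subunits surround them. Assembly factors help to build the complex and are not part of the finished enzyme. Muscle fibres, above all oxidative ones, are rich in it.

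The members' promoters carry a few known sequence elements of genes for mitochondrial proteins. In the RefSeq promoter windows of GRCm38.p6, which run from 250 bases before to 50 bases after a transcript start, 41 of the 47 members had an entry. Those without one include Ndufa2, Ndufa4l2, Ndufaf6, Ndufb9 and Ndufs1. Both strands were searched for 5 motifs, and in no member did matches of different motifs overlap. The motif of YY1, spelled in capitals in the upper 5 lines of sequence that follow, was found in 5 of 41 members (12.2%), in 0.995% of the 27025 genes with a promoter window, and in 2.27% of the 10453 of these that were tested for expression. For the motif of NRF1, in capitals in the lower 3 lines, the counts were 3 of 41 members (7.32%), 1.07% of all genes and 2.18% of tested genes. Among the 34 subunits with a window, 4 had the YY1 motif and 1 the NRF1 motif, and the other matches were in assembly factors. NRF1 is a regulator of nuclear genes for mitochondrial proteins. Of the other 3 motifs, CCGGAAG, bound by ETS factors such as GABP, was in 14.6% of members and 19.0% of tested genes, AAGGTCA, bound by the oestrogen-related receptors, in 7.32% and 3.75%, and ACGTG, the core of the hypoxia response element, in 19.5% and 28.8%.

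The matches of YY1 and NRF1, the longest motifs searched, are shown with up to 10 bases on each side, 5′ to 3′ on the gene's strand, so that their surroundings can be compared. Capitals mark the motif. A match is a description of the letters and not a measured binding site.
Ndufs4: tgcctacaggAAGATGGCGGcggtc
Ndufs6: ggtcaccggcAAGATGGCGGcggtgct
Ndufs7: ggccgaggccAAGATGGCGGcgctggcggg
Ndufa9: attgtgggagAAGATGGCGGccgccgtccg
Ndufaf8: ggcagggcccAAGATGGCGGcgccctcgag
Ndufa11: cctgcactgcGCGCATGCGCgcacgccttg
Ndufaf4: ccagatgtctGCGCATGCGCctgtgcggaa
Ndufaf5: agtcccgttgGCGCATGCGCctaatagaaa
The upper 5 lines carry the YY1 motif, on the sense strand and after the transcript start, beginning between base 11 (Ndufaf8) and base 36 (Ndufs4) of the transcript. The motif contains the letters ATG, and whether these matches include a translation start was not examined. The lower 3 carry the NRF1 motif, which lies before the start in Ndufa11 and Ndufaf4 and after it in Ndufaf5. The stretches of the YY1 lines lie at chr13:114388045-114388069 (- strand), chr13:73328433-73328459 (- strand), chr10:80249463-80249492 (+ strand), chr6:126849096-126849125 (- strand) and chr11:120098934-120098963 (+ strand). Those of the NRF1 lines lie at chr17:56717692-56717721 (+ strand), chr4:24897960-24897989 (+ strand) and chr2:140170652-140170681 (+ strand). All coordinates are of GRCm38.p6.

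All 39 subunit genes had a lower fitted level in HLI than in Sham when libraries were scaled by TMM (trimmed mean of M values), and none of the differences passed the test. The log2 fold changes of HLI over Sham ran from -0.53 for Ndufa3 to -0.085 for Ndufa4l2, with a median of -0.30, against a median of 0.029 over the 13404 genes tested. As folds these ends are 0.692 and 0.943. Without Ndufa4 and Ndufa4l2, which differ in role from the other members, the remaining 37 subunit genes had a median of -0.30. Their highest value was -0.15, for Ndufb3. Of all genes tested 46.2% had a log2 fold change below 0. Of the 8 assembly factor genes 7 were below 0, with a median of -0.14. At an adjusted p under 0.05 (edgeR quasi-likelihood test, Benjamini-Hochberg over all genes) 0 subunits and 0 assembly factors were called, where 0% of all genes were called. At an unadjusted p under 0.05 the edgeR test had 4 subunits and 0 assembly factors lower in HLI, against 6.15% of all genes, and DESeq2 called 36 genes of which 0 were members. That count of 4 depended on single libraries. It was 20 when HLI replicate 4 was left out (where 14.5% of all genes were lower), 17 when Sham replicate 3 was (7.59%), and 8 for HLI replicate 2 (5.71%). Leaving out Sham replicate 1 gave 4 (7.21%) and Sham replicate 2 gave 1 (2.86%). Each of HLI replicates 1, 3 and 5 gave 0 (6.25, 3.46 and 3.55%), as did Sham replicates 4 and 5 (3.85 and 2.74%).

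The direction depended on the scaling for part of the members. On the TPM values (length-scaled transcript abundances) as deposited, the median of all genes was itself 0.19 by limma on the log2(TPM + 1) scale. There 33 of 39 subunits and 3 of 8 assembly factors were below 0, against 24.2% of all genes tested. The medians of subunits and factors were -0.11 and 0.10. Relative to the median of all genes these medians were -0.29 and -0.084, and 39 subunits and 7 assembly factors lay below it.

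**Figure D1:**
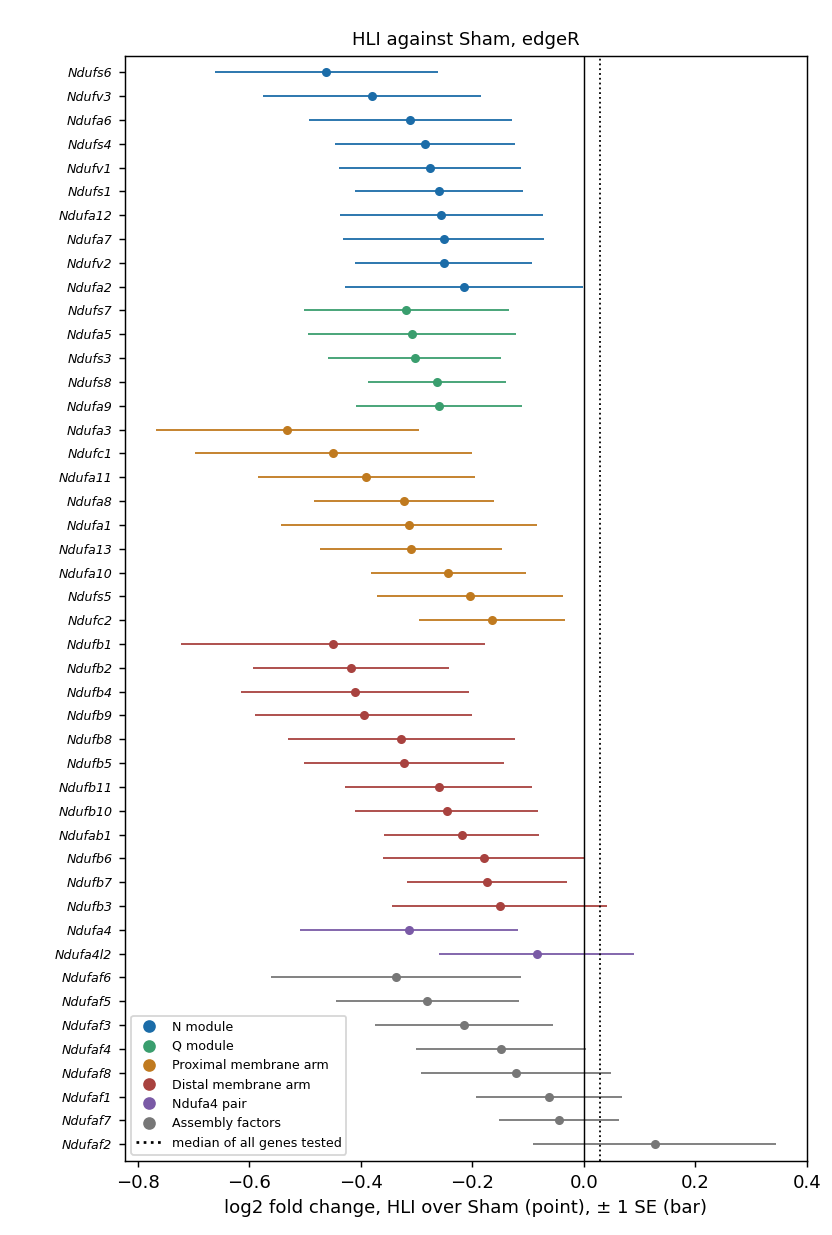
Log2 fold change of HLI over Sham (points) with 1 standard error on each side (bars) from the edgeR fit, for 38 of the 39 subunits by module and the 8 assembly factors; the dotted line is the median of all genes tested. All subunits lie left of 0, from -0.53 to -0.085, and Ndufaf2 is the only member right of it; on deposited TPM without scaling 6 subunits and 5 assembly factors would lie right of 0.

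HLI replicate 3 was the lowest library, and the difference was smaller without it. The median log2 difference of the subunits from the Sham mean reached -0.78 in HLI replicate 3, and HLI replicate 1 followed with -0.45. In HLI replicates 2, 4 and 5 it was -0.067, 0.011 and -0.21. The Sham libraries ran from -0.37 in Sham replicate 3 to 0.32 in Sham replicate 4. Between samples of the same number, HLI minus Sham was -0.31, -0.072, -0.41, -0.31 and -0.37 for numbers 1 to 5. The labels do not state that numbers mark pairs. HLI replicate 3 held the lowest CPM of 36 of the 39 subunits and HLI replicate 1 that of the other 3. Its TMM factor of 1.23, which lowers its CPM, was the largest of all libraries. On deposited TPM it was lowest in 25 subunits, Sham replicate 3 in 11 and HLI replicate 1 in 3. Sham replicate 4 held the highest CPM of 32. In 0 of 47 members did the CPM of the groups separate, where 0.873% of all genes had each HLI value under the Sham minimum. Without HLI replicate 3 the median of the subunits was -0.18 and that of the assembly factors -0.067, with 39 and 7 members below 0. Without both HLI replicates 1 and 3 they were -0.11 and -0.02, with 38 and 6 below 0. Without HLI replicate 4 they were -0.40 and -0.24, and no member was called in these fits either.

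**Figure D2:**
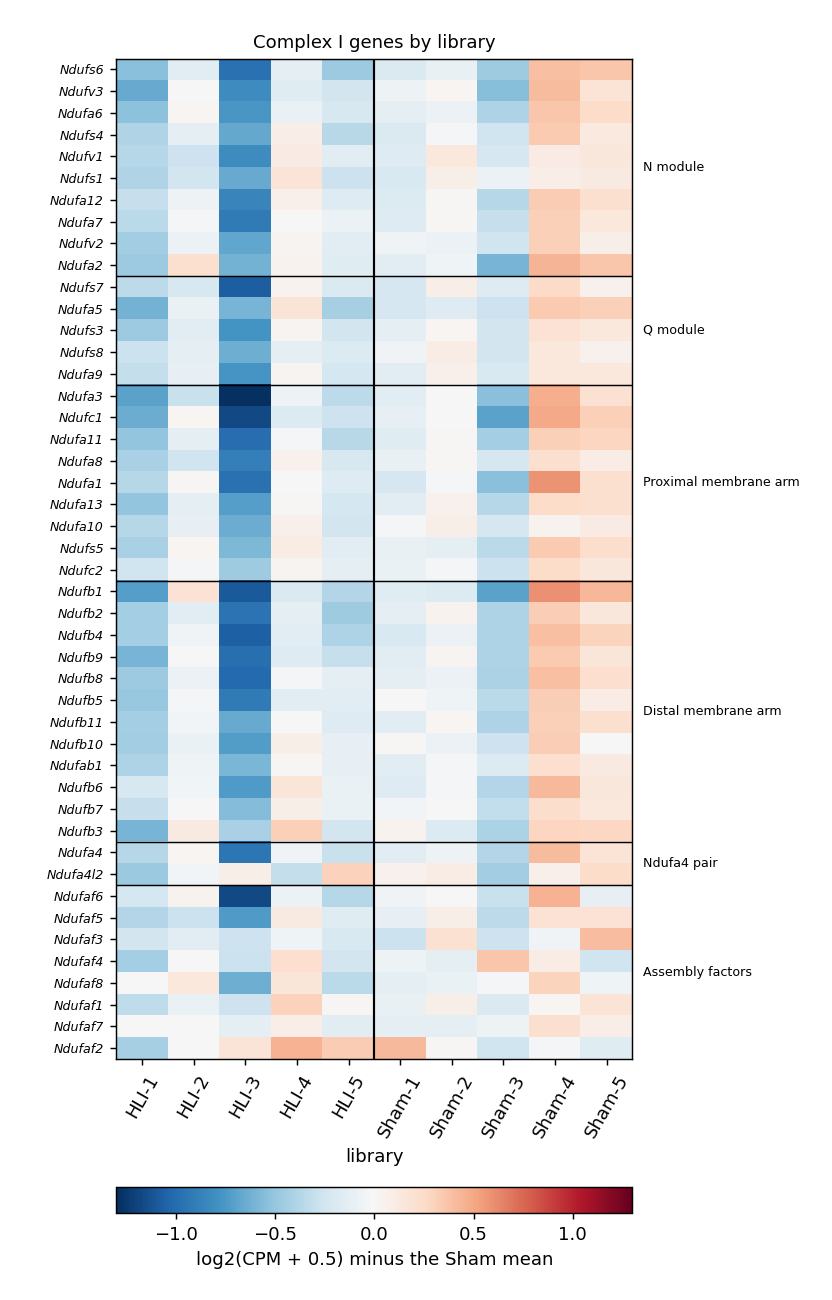
Log2(CPM + 0.5) of 46 members in each library minus the mean of the Sham libraries (colour), with HLI libraries on the left and Sham libraries on the right, and members grouped by module. Over all 39 subunits HLI replicate 3 is lowest in 36 and Sham replicate 4 highest in 32; among the 8 assembly factors HLI replicates 1 and 3 are lowest in 3 each and Sham replicate 4 is highest in 4.

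In the N module, which takes up electrons from NADH, the 10 genes had log2 fold changes between -0.46 and -0.21. Ndufv1, which encodes the subunit that binds NADH and flavin, had 202, 217, 148, 281 and 237 CPM in HLI replicates 1 to 5, against 232, 287, 225, 280.3 and 289 CPM in Sham replicates 1 to 5. HLI replicate 3 was the lowest library and HLI replicate 4 lay within the upper part of the Sham range. The log2 fold change of Ndufv1 was -0.28 with an SE of 0.16 and an edgeR adjusted p of 0.359. Ndufv2, an iron-sulfur subunit next to it, had 272 ± 52.5 CPM in HLI and 324 ± 48.8 CPM in Sham (SD, n = 5 each), a log2 fold change of -0.25 with an SE of 0.16 and an edgeR adjusted p of 0.378. Ndufs1, the largest iron-sulfur subunit of the module, had 295, 327, 245, 436 and 319 CPM in HLI replicates 1 to 5, against 338, 408, 367, 411 and 419 CPM in Sham replicates 1 to 5. Here 4 of 5 HLI libraries lay below every Sham library, and HLI replicate 4 was the highest of all 10. Its log2 fold change was -0.26 with an SE of 0.15 and an edgeR adjusted p of 0.353.

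Among the accessory genes of this module Ndufs6 had the lowest value. Ndufs6 encodes a zinc-binding subunit and had 39.8, 52.4, 29.5, 53.6 and 41.9 CPM in HLI replicates 1 to 5, against 51.1, 54.5, 42.1, 76.5 and 74.9 CPM in Sham replicates 1 to 5. Sham replicates 4 and 5 were the highest libraries and all 5 HLI libraries lay below the Sham median. The log2 fold change was -0.46 with an SE of 0.20 and an edgeR adjusted p of 0.292, and -0.35 without HLI replicate 3. Ndufs4, an accessory gene whose loss is used as a mouse model of Leigh syndrome, had 115 ± 23.0 CPM in HLI and 140.0 ± 24.1 CPM in Sham (SD, n = 5 each). Ndufv3, Ndufa2, Ndufa6, Ndufa7 and Ndufa12 had log2 fold changes of -0.38, -0.21, -0.31, -0.25 and -0.26.

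In the Q module, where ubiquinone is reduced, the genes described here lay close together, with log2 fold changes between -0.32 and -0.26. Ndufs7, whose product holds the last iron-sulfur cluster before ubiquinone, had 98.9, 109, 59.3, 129 and 109.8 CPM in HLI replicates 1 to 5, against 107, 133, 112, 149 and 130.3 CPM in Sham replicates 1 to 5. HLI replicates 1 and 3 lay below every Sham library, with replicate 3 far below, and the other 3 HLI libraries were inside the Sham range. Its log2 fold change was -0.32 with an SE of 0.18 and an edgeR adjusted p of 0.349. Ndufs8, a further iron-sulfur subunit, had 86.0, 96.1, 67.1, 96.0 and 92.0 CPM in HLI replicates 1 to 5, against 101, 111, 88.7, 115 and 109 CPM in Sham replicates 1 to 5. HLI replicates 1 and 3 again lay below every Sham library, and the other 3 HLI libraries exceeded Sham replicate 3 only. Its log2 fold change was -0.26 with an SE of 0.12 and an edgeR adjusted p of 0.299, with the smallest standard error of all subunits. Ndufs3, a core subunit of the early Q intermediate, had 156 ± 32.4 CPM in HLI and 192 ± 23.4 CPM in Sham (SD, n = 5 each) and a log2 fold change of -0.30 with an SE of 0.16 and an edgeR adjusted p of 0.317. The accessory genes Ndufa5 and Ndufa9 had log2 fold changes of -0.31 and -0.26.

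In the proximal membrane arm the 9 genes ranged from -0.53 for Ndufa3 to -0.17 for Ndufc2. Ndufa3 encodes a small accessory subunit of the membrane arm and had 23.1, 30.7, 14.8, 35.9 and 29.7 CPM in HLI replicates 1 to 5, against 34.3, 38.0, 25.8, 52.6 and 43.3 CPM in Sham replicates 1 to 5. HLI replicates 1 and 3 lay below every Sham library, and Sham replicate 3 was lower than HLI replicates 2, 4 and 5. The log2 fold change was -0.53 with an SE of 0.24 and an edgeR adjusted p of 0.293, and -0.38 without HLI replicate 3. Ndufc1, another small membrane subunit gene, had 49.5 ± 14.7 CPM in HLI and 67.5 ± 19.8 CPM in Sham (SD, n = 5 each) and a log2 fold change of -0.45. Ndufa13, also known as GRIM-19 and needed for assembly, had 81.2 ± 16.1 CPM in HLI and 101 ± 17.1 CPM in Sham (SD, n = 5 each) and a log2 fold change of -0.31. Ndufa1, Ndufa8, Ndufa10, Ndufa11 and Ndufs5 had log2 fold changes of -0.31, -0.32, -0.24, -0.39 and -0.20.

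In the distal membrane arm the 12 genes ranged from -0.45 for Ndufb1 to -0.15 for Ndufb3. Ndufb2 had the smallest unadjusted p of all members. This accessory gene had 53.3, 66.4, 37.3, 66.9 and 52.8 CPM in HLI replicates 1 to 5, against 67.3, 75.0, 55.2, 91.3 and 80.8 CPM in Sham replicates 1 to 5. HLI replicates 1, 3 and 5 lay below every Sham library, and HLI replicates 2 and 4 fell between Sham replicates 3 and 1. Its log2 fold change was -0.42 with an SE of 0.18 and an edgeR adjusted p of 0.292 with an unadjusted p of 0.0352. Ndufb9, which encodes a subunit of the LYR protein family, had 189, 289, 146, 257 and 234 CPM in HLI replicates 1 to 5, against 263, 296, 219, 366 and 323 CPM in Sham replicates 1 to 5, and its log2 fold change was -0.40 with an SE of 0.19 and an edgeR adjusted p of 0.31. HLI replicate 2 lay just below the Sham median, and HLI replicates 1 and 3 below every Sham library. Ndufb4, an accessory gene, had 158 ± 38.9 CPM in HLI and 211 ± 48.8 CPM in Sham (SD, n = 5 each), a log2 fold change of -0.41 with an SE of 0.20 and an edgeR adjusted p of 0.312.

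Ndufb8, whose protein is widely used as a blot marker of assembled complex I, had 200.4 ± 50.2 CPM in HLI and 251.5 ± 54.2 CPM in Sham (SD, n = 5 each) and a log2 fold change of -0.33 with an SE of 0.20 and an edgeR adjusted p of 0.374. Ndufab1, the mitochondrial acyl carrier protein that also serves fatty acid and lipoate synthesis, had 159 ± 27.1 CPM in HLI and 185 ± 21.4 CPM in Sham (SD, n = 5 each) and a log2 fold change of -0.22. Ndufb5, Ndufb6, Ndufb7, Ndufb10 and Ndufb11 had log2 fold changes of -0.32, -0.18, -0.17, -0.25 and -0.26. The medians of the modules were -0.27 for the N module, -0.31 for the Q module, -0.31 for the proximal and -0.29 for the distal membrane arm.

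Ndufa4 and Ndufa4l2 carry the Nduf name but differ from the other members in role. Ndufa4 is now regarded as a subunit of cytochrome c oxidase, and Ndufa4l2 is a paralogue known as a target of HIF-1 that restrains complex I activity in hypoxia. Ndufa4 had the highest level per length of all members, with 803 ± 119 TPM in HLI and 877 ± 129 TPM in Sham (SD, n = 5 each). In CPM it had 241, 317, 163, 303 and 256 CPM in HLI replicates 1 to 5, against 285, 298, 241, 415 and 353 CPM in Sham replicates 1 to 5. HLI replicate 3 was lowest and Sham replicate 4 highest, as in most subunits, and the log2 fold change was -0.31 with an SE of 0.20 and an edgeR adjusted p of 0.376.

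Ndufa4l2 had the lowest level per length of the subunit genes, with 30.0 ± 8.59 TPM in HLI and 27.2 ± 4.19 TPM in Sham (SD, n = 5 each). In CPM it had 10.5, 14.5, 15.7, 11.9 and 18.4 CPM in HLI replicates 1 to 5, against 15.5, 15.9, 10.7, 15.6 and 17.6 CPM in Sham replicates 1 to 5. The groups overlapped over nearly the whole range, and HLI replicate 5 was the highest of all libraries. The log2 fold change was -0.085 with an SE of 0.17 and an edgeR adjusted p of 0.791, 0.0051 without HLI replicate 1 and 0.10 on unscaled TPM. As a share of the TPM of Ndufa4, that of Ndufa4l2 was 2.85, 2.99, 6.28, 2.55 and 4.68% in HLI replicates 1 to 5, against 3.54, 3.49, 2.91, 2.44 and 3.25% in Sham replicates 1 to 5. HLI replicates 3 and 5 exceeded every Sham library and the other 3 HLI libraries did not (exact two-sided permutation p = 0.437, n = 5 each).

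**Figure D3:**
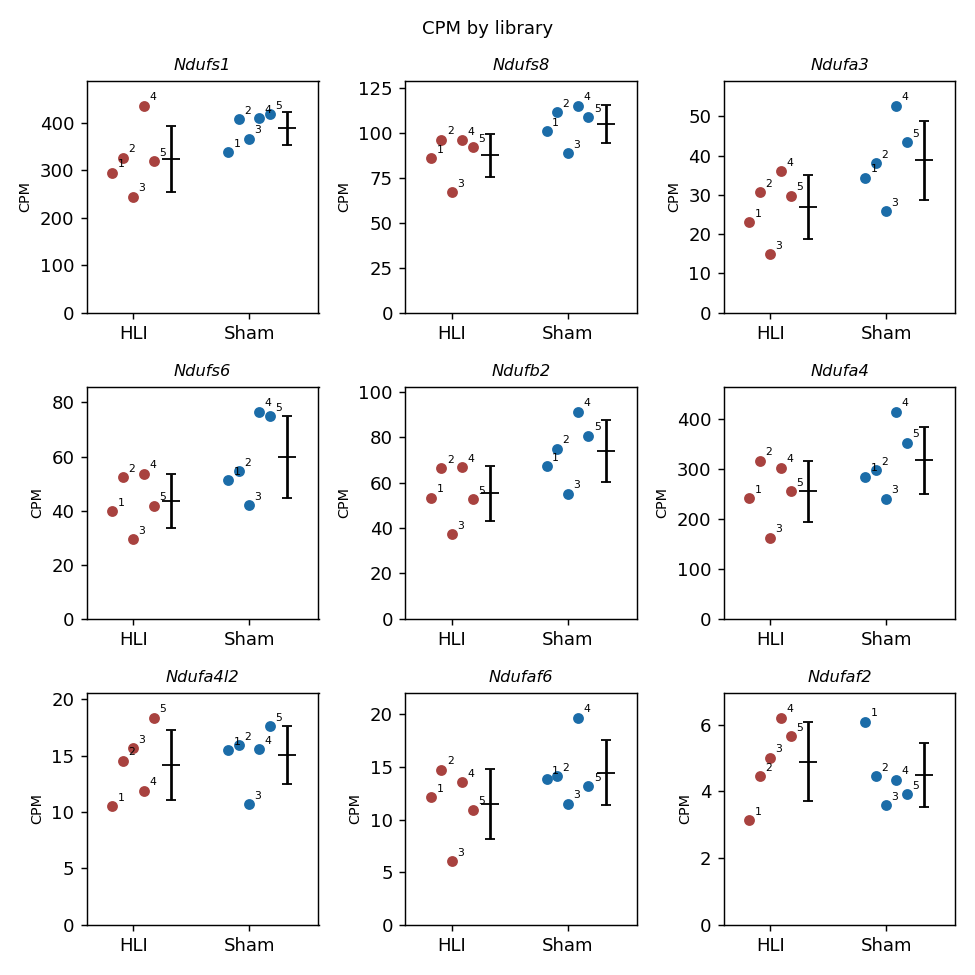
CPM (counts per 1000000, with TMM-scaled library sizes) of 9 members in each library, with replicate numbers beside the points and the mean ± SD (n = 5) as a black bar. HLI libraries are on the left and Sham libraries on the right; HLI replicate 3 is lowest in 7 of the 9 panels, at 245 CPM for Ndufs1, but not for Ndufa4l2 and Ndufaf2.

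The assembly factor genes stood at lower levels than the subunits. Their mean levels per length ran from 10.3 TPM (Ndufaf3) to 48.5 TPM (Ndufaf1) in HLI and from 10.7 TPM to 44.5 TPM of the same genes in Sham, whereas the subunits ran from 30.0 to 803 TPM in HLI and from 27.2 to 877 TPM in Sham. Their summed level was 198 ± 10.6 TPM in HLI and 189.9 ± 7.32 TPM in Sham (SD, n = 5 each). With TMM scaling the same sum was 134 ± 21.3 CPM in HLI and 148 ± 10.0 CPM in Sham (SD, n = 5 each), which is the opposite order. The subunits summed to 10213 ± 1144 TPM in HLI and 11082 ± 1233 TPM in Sham (SD, n = 5 each) and, in CPM, to 4748 ± 968 CPM in HLI and 5829.5 ± 873 CPM in Sham (SD, n = 5 each). Whether the factors differed from the subunits was not tested.

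Ndufaf6, of the family of squalene and phytoene synthases, had the lowest value among the factors. It had 12.1, 14.7, 6.03, 13.5 and 10.9 CPM in HLI replicates 1 to 5, against 13.8, 14.1, 11.5, 19.7 and 13.2 CPM in Sham replicates 1 to 5. HLI replicate 3 stood far below all other libraries, and without it the log2 fold change of -0.34 with an SE of 0.22 and an edgeR adjusted p of 0.397 was -0.17. Ndufaf5, which hydroxylates the subunit NDUFS7, had 19.3 ± 4.20 CPM in HLI and 23.4 ± 3.55 CPM in Sham (SD, n = 5 each), a log2 fold change of -0.28 with an SE of 0.16 and an edgeR adjusted p of 0.355. Ndufaf8, its partner, had a log2 fold change of -0.12. Ndufaf3 and Ndufaf4, which act together on the early Q intermediate, had log2 fold changes of -0.21 (adjusted p = 0.439 by edgeR) and -0.15.

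Ndufaf1, a core component of the complex that assembles the membrane arm, had 28.6, 33.9, 29.8, 44.3 and 36.4 CPM in HLI replicates 1 to 5, against 33.6, 38.0, 31.6, 36.6 and 40.8 CPM in Sham replicates 1 to 5. HLI replicate 4 was the highest library and HLI replicates 1 and 3 were the lowest. Its log2 fold change was -0.063 with an SE of 0.13 and an edgeR adjusted p of 0.793. Ndufaf7, a mitochondrial arginine methyltransferase, had 15.3 ± 1.03 CPM in HLI and 15.8 ± 1.66 CPM in Sham (SD, n = 5 each). Ndufaf2, which binds a late intermediate before the N module is complete, was the member with the fewest counts and had 3.14, 4.44, 5.01, 6.21 and 5.65 CPM in HLI replicates 1 to 5, against 6.09, 4.46, 3.59, 4.35 and 3.91 CPM in Sham replicates 1 to 5. HLI replicate 4 was highest, next to Sham replicate 1, and HLI replicate 1 lowest. It was the only member with a fitted value above 0, with a log2 fold change of 0.13 with an SE of 0.22 and an edgeR adjusted p of 0.742. That value was 0.015 without HLI replicate 4 and 0.26 without Sham replicate 1. Over 17 members named by rule, exact two-sided permutation p-values, not adjusted, ran from 0.0397 for Ndufb2 to 0.651 for Ndufa4l2, where the smallest that 5 against 5 samples allow is 0.0079.

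Further complex I genes were read from fixed lists. Of 11 assembly genes without the Nduf name 10 were in the table and tested, and 0 were called by edgeR and 0 by DESeq2. At an unadjusted p under 0.05 by edgeR 3 were lower in HLI, 9 lay below 0 and the median log2 fold change was -0.19. Over all genes tested, 6.15% were lower in HLI at that p and 46.2% lay below 0. Ecsit, a partner of Ndufaf1, had 53.6 ± 14.1 CPM in HLI and 71.0 ± 4.13 CPM in Sham (SD, n = 5 each), and its log2 fold change was -0.41 with an SE of 0.17 and an adjusted p of 0.292 by edgeR. Foxred1, another assembly factor, was the 1 gene above 0, at 0.14. The 7 subunit genes of the mitochondrial genome (mt-Nd) had log2 fold changes between -0.34 and -0.019. At an unadjusted p under 0.05 there were 0 of them, and 0 were called. They summed to 33108 ± 8021 CPM in HLI and 36343 ± 7235 CPM in Sham (SD, n = 5 each), and on deposited TPM to 61859 ± 10272 TPM in HLI and 60719 ± 11364 TPM in Sham (SD, n = 5 each), where the order is reversed. Their order of libraries differed from that of the nuclear subunits. In HLI replicate 3 their median difference from the Sham mean was -0.27 against -0.78 for the nuclear subunits, and in Sham replicate 3 it was 0.29 against -0.37. The list for complex II, the succinate dehydrogenase, held 8 genes and mixed its subunits with Sdhaf assembly factors. Its median log2 fold change was -0.25, with 8 genes below 0, 0 called and 0 at an unadjusted p under 0.05 by edgeR. In HLI replicate 3 its median difference was -0.51. The subunit genes Sdha, Sdhb, Sdhc and Sdhd had log2 fold changes of -0.28, -0.30, -0.25 and -0.13. The Sdhaf genes ranged from -0.32 for Sdhaf3 to -0.038 for Sdhaf2.

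The library with the lowest complex I subunits, HLI replicate 3, also had the lowest fast and slow fibre markers. The 12 fast fibre markers, 11 of them below 0, summed to 65773 to 171951 CPM in HLI and 146987 to 200967 CPM in Sham. The 8 slow fibre markers, 7 of them below 0, summed to 815 to 2921 CPM in HLI and 1914 to 3257 CPM in Sham. Next to it in the summed fast markers came HLI replicates 5 and 1, at 117064 and 118644 CPM. In HLI replicate 3 the median differences from the Sham mean were -1.44 for fast and -1.59 for slow fibre markers, both lower than the -0.78 of the complex I subunits. All 12 macrophage markers lay above 0 and summed to 961 to 3972 CPM in HLI and 741 to 1865 CPM in Sham, with HLI replicates 1 and 3 highest. The 8 fibroblast markers, 7 above 0, summed to 5771 to 24141 CPM in HLI and 8136 to 11266 CPM in Sham. The 6 adipocyte markers, all below 0 but with a higher mean summed TPM in HLI, summed to 390.2 to 669 CPM in HLI and 457 to 617 CPM in Sham. HLI replicate 4, the HLI library with the highest complex I subunits, stood apart in them with a median difference of -2.74, where the other 9 libraries ran from -1.01 to 0.46. The 8 endothelial markers, 6 above 0, summed to 1013 to 1625 CPM in HLI and 920.3 to 1644 CPM in Sham. Of these markers 0 were called by edgeR and 0 by DESeq2. At an unadjusted p under 0.05 by edgeR, 5 of 12 fast fibre and 2 of 8 slow fibre markers were lower in HLI, against 6.15% of all genes. Higher in HLI at that p were 9 of 12 macrophage, 3 of 8 fibroblast and 1 of 8 endothelial markers, against 10.7% of all genes. No marker was at 0 in any library, and the part of these cell types in the complex I values was not tested. In bulk muscle, fewer fibres and less complex I RNA per fibre cannot be told apart.

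**Figure D4:**
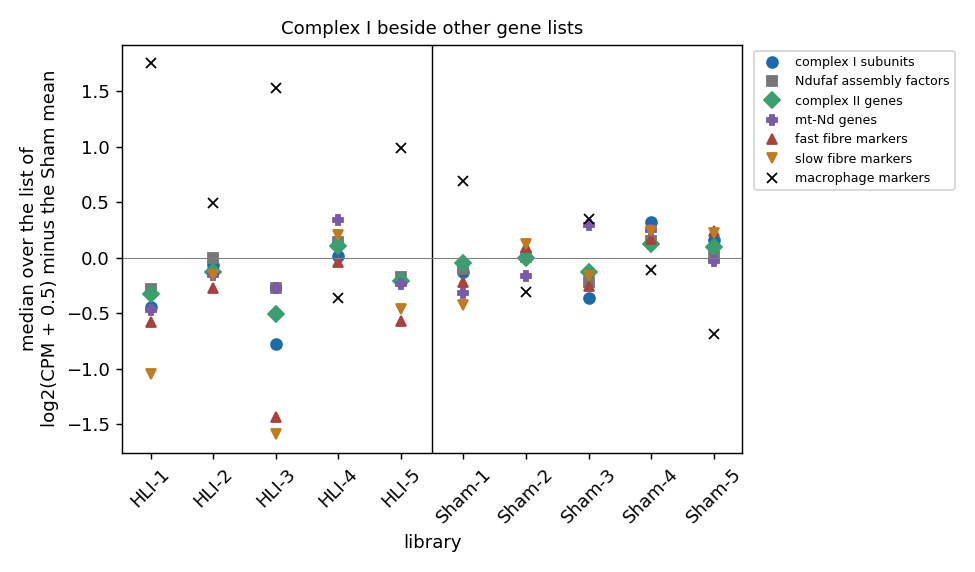
Median over each gene list of log2(CPM + 0.5) minus the Sham mean, by library, with HLI libraries on the left and Sham libraries on the right. In HLI replicate 3 the complex I subunits stand at -0.78, between the assembly factors at -0.27 and the fast fibre markers at -1.44, and the macrophage markers stand at 1.53.

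Among themselves the subunits spread most in HLI replicate 3, where their log2 differences from the Sham mean had an SD of 0.244 over the 39 genes, against 0.114 to 0.136 in the other HLI libraries and 0.0713 to 0.145 in Sham. Transcript length went with part of the spread within libraries, in a direction that differed between them. The length that the deposited counts and TPM imply was 0.15 times the median of all tested genes for Ndufa1, the shortest, and 0.934 times for Ndufs1, the longest subunit. Across the 39 subunits Spearman's rho between this length and the log2 difference was 0.68 in Sham replicate 3 and -0.70 in Sham replicate 4, and 0.34 in HLI replicate 3. In HLI replicates 1, 2, 4 and 5 it was 0.26, -0.40, 0.26 and 0.057. In Sham replicates 1, 2 and 5 it was 0.041, 0.37 and -0.46. These are descriptions across genes of 1 library, which share its depth and enter the Sham mean, and genes are not independent replicates.

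The 20 shorter subunits, up to 0.253 times the median length, had medians of -0.93 in HLI replicate 3, -0.40 in Sham replicate 3 and 0.38 in Sham replicate 4. The 19 longer ones had -0.71, -0.24 and 0.21 in the same libraries. In the 247 other short genes tested the medians were -0.29, -0.26 and 0.26, and in the 13048 other long genes 0.046, 0.0014 and 0.0098. Other short genes were thus also lower in Sham replicate 3 and higher in Sham replicate 4. Over HLI against Sham the median log2 fold change was -0.31 in the shorter and -0.26 in the longer subunits, against -0.14 in other short and 0.034 in other long genes. The longer subunits ended at 0.934 times the median length (Ndufs1), so many of the other long genes were longer than all of them. The part of length in the members' values was not tested.

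**Figure D5:**
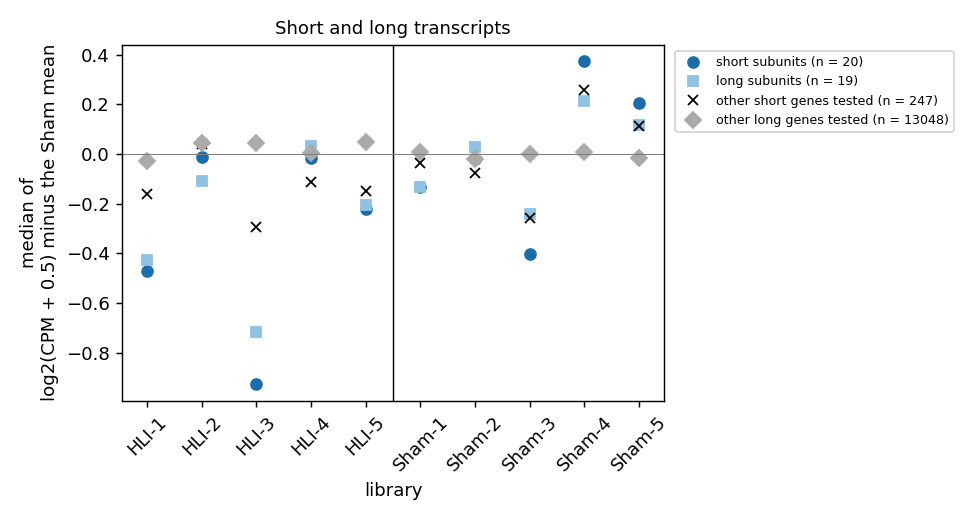
Median log2(CPM + 0.5) minus the Sham mean by library, for shorter and longer complex I subunits and for other short and long genes, divided at 0.253 times the median length. Short genes of both kinds lie low in Sham replicate 3 and high in Sham replicate 4, while HLI replicate 3 is low in shorter and longer subunits alike, at -0.93 and -0.71.

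Some counts are uncertain because reads could be shared. The strand setting of the counting is not given in the sources used here, and in GENCODE annotation of GRCm38 the exons of 19 of 47 members overlap an exon of another gene, 17 of them on the opposite strand. Among the genes described above these include Ndufs1 (Eef1b2), Ndufs3 (Kbtbd4), Ndufs6 (Mrpl36), Ndufa3 (Tfpt), Ndufa4l2 (Shmt2) and Ndufaf3 (Impdh2). Ndufb2, Ndufb8 and Ndufb9 overlap a gene model on the same strand. The annotation also names 4 processed pseudogenes after members, namely Ndufa11b, Ndufab1-ps, Ndufb4c and Ndufs6b.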

How the data were processed

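Poly(A) RNA-seq of mouse gastrocnemius (paired-end Illumina sequencing, per the labels' protocols) gave 5 HLI and 5 Sham libraries. Per the file headers, the authors deposited TPM beside an estimated count for each gene in each library. HISAT2 (version 2.0), Bowtie (version 0.12.2) and the build mm8 appear in the submitters' processing notes without a role. The counting tool, its annotation and strand setting are not given there or elsewhere in the labels. The labels' texts also mention cells and adipose material. Totals ran from 16556385 to 22136299 counts per library, and 93.4% of the counts were whole numbers. Precision is limited by the 5 libraries per group.

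Counts were rounded and filtered with filterByExpr (minimum count 10, minimum total 15), which left 13404 genes, scaled by TMM and tested with edgeR 4.0.16 (R 4.3.3, quasi-likelihood, no block, Benjamini-Hochberg adjustment, threshold 0.05). CPM are these scaled counts per 1000000. Per-library differences are log2(CPM + 0.5) minus the Sham mean. Exact permutation tests used every assignment of libraries to 2 groups of 5. DESeq2 1.42.0, its size factors, no filter, limma 3.58.1 on TPM with pseudocounts of 1 and 0.1, a replicate block and leaving out each library were the alternatives. On simulated data (13305 genes) edgeR recovered 73% of genes changed 2-fold and 97% of those changed 4-fold, with 6.08% false calls. The simulation drew each gene independently and changed only genes above a minimum mean count. Shifts shared by many genes of a library, as in HLI replicate 3, were not simulated, so these rates may not hold for the real libraries. Recovery of smaller changes, such as the subunits' folds of 0.692 to 0.943, was not tested.

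Genes named by rule were the core subunits, Ndufa4 and Ndufa4l2, the 5 other subunits and 3 factors with the smallest p, and the highest and lowest of each list. The members and lists were chosen with earlier results of these data known. The division of subunits by length and the names of further members were chosen after values were seen. One member is not reported here by name, though it enters the counts and medians.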

Additional observations from a re-analysis of the deposited data

Results flagged for a closer look

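In 98 groups of 5 libraries (the 47 members and the medians of subunits and of factors, in each of HLI and Sham), a library was checked for standing far from the others of its group. Chance alone gives about 1 such value in 20 groups, and 2 were found. Ndufa4l2 stood at 10.7 CPM in Sham replicate 3, where the other Sham libraries had 15.5 to 17.6 CPM. Ndufaf8 stood at 15.6 CPM in Sham replicate 4, where the other Sham libraries had 11.6 to 12.4 CPM. In Sham replicate 3 the medians of shorter and longer subunits were also low, at -0.40 and -0.24. In Sham replicate 4 they were high, at 0.38 and 0.21. Ndufa4l2, at 0.335 times the median length, is among the longer subunits, and Ndufaf8 has 0.239 times that length. A link between length and these 2 values was not tested.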

How the results depend on the processing

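Of 846 refitted member values (47 members, 18 settings) 823 kept their direction and none passed the threshold; 23 changed sign. On deposited TPM the median of all genes shifted upward. There the log2 fold changes with pseudocounts of 1 and 0.1 (1 value where equal) were Ndufa2 0.0011 and 0.0012, Ndufb3 0.032 and 0.033, Ndufb6 0.021, Ndufb7 0.021, Ndufc2 0.044 and Ndufa4l2 0.10 and 0.11. For the factors they were Ndufaf1 0.12, Ndufaf4 0.17 and 0.18, Ndufaf7 0.10 and Ndufaf8 0.10 and 0.11. The factors' median was 0.10 and 0.11 there, with 3 of 8 below 0 in both, against 24.2% and 24.5% of all genes. DESeq2 called 36 genes in all against 0 by edgeR, and 0 members. Leaving out 1 library gave subunit medians of -0.40 to -0.18, factor medians of -0.24 to -0.067, and -0.20 to 0.0051 for Ndufa4l2. The smallest adjusted p of a member was then 0.0844 by edgeR, without HLI replicate 4. Without HLI replicates 1 and 3, a setting chosen after seeing the data, Ndufb3 was 0.059 and Ndufaf1 0.079. The cause of these changes was not tested.

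Nothing in the labels says that a shared replicate number marks a pair, and whether it does is uncertain from the data. Deviations of same-numbered samples correlated between -0.0045 and 0.30, above 0.1 for 3 of 5 numbers, and 0 of 5 correlated best with their own number. The subunit median was lowest for replicate 3, next for 1 and highest for 4 in both groups, and HLI was below Sham within all 5 numbers (differences of -0.41 to -0.072). With the replicate block the medians were -0.30 for subunits and -0.15 for factors, with 0 genes called. At an unadjusted p under 0.05 the block had 27 subunits, against 4 without it, and 9.5% of all genes lower in HLI.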
